A study of Mus musculus with 24 samples.

Results

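The nuclear-encoded genes of oxidative phosphorylation were followed in the retina after blast-mediated traumatic brain injury (bTBI). A gene was a member if its symbol began with Nduf, Uqcr, Atp5, Cox4, Cox5, Cox6, Cox7 or Cox8, or was Sdha, Sdhb, Sdhc or Sdhd, and did not contain -ps. This gave 92 of the 14922 genes in the 1 week table and 91 of the 15920 genes in the 5 weeks table, all 91 of them in both tables. The members comprised 39 genes of complex I, 8 complex I assembly factors (the Ndufaf genes), 4 of complex II, 8 of complex III, 16 of complex IV and 17 of complex V. Complexes were assigned by symbol, so that Ndufa4, a subunit now counted to complex IV, and the related Ndufa4l2 are among the complex I genes in every count and median. Another 5 symbols that met the rule, among them the muscle isoform Cox6a2, were not analysed here. Of the 92 members, 90 were annotated as protein coding and 2 (Cox6c2 and Ndufs6b) as processed pseudogenes. Some subunits carry symbols outside the rule, and 1 of them, Ndufb1-ps, was left out by it.

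Adult male C57BL/6J mice received a blast inside a closed chamber (bTBI, labelled Treated) or the same handling with no blast (sham, labelled Control), and the retina of the eye that faced the blast was taken. RNA sequencing covered 6 bTBI and 6 sham retinas at 1 week (8 days in the labels) and 6 and 6 at 5 weeks, 24 retinas in all, with no genotype or drug that set the groups apart. The RNA kit was RNeasy Plus Mini for the early retinas and RNeasy Mini for the late ones, and each timepoint has its own normalised table, so that time, kit and table cannot be told apart. The labels name the cell type as retinal ganglion cell, but whole retina was extracted, and the mean of 8 rod photoreceptor genes was 12.09 to 12.36 on the log2(CPM + 1) scale in the 12 retinas at 1 week, where CPM are counts scaled to an effective library of 1000000. The depth recovered from the smallest step between values was 14301989 to 25158638 reads per retina. At 1 week 4 bTBI retinas stood apart for genes of other tissues. These were replicates 5 and 6 for lens genes and replicates 3 and 4 for an oligodendrocyte gene. Results are given with and without each pair, and no fit left out all 4.

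Oxidative phosphorylation is carried out by 5 protein complexes of the inner mitochondrial membrane. Complex I (NADH dehydrogenase) and complex II (succinate dehydrogenase) pass electrons to ubiquinone, complex III passes them to cytochrome c and complex IV (cytochrome c oxidase) to oxygen, while complexes I, III and IV pump protons. Complex V (ATP synthase) uses the proton gradient to make ATP. Complex II is encoded wholly in the nucleus, whereas the other complexes also hold subunits made from mitochondrial DNA, of which 0 of 13 were analysed here. The retina is among the most energy-demanding tissues, and most of its mitochondria lie in photoreceptor inner segments. Because whole retina was measured, a change in the number of cells of a type and a change in RNA per cell cannot be told apart.

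Promoters of these genes are known for sites of NRF1, GABPA and YY1, transcription factors that act on mitochondrial genes. RefSeq promoter windows (GRCm38.p6, 250 bases before to 50 after the start) were found for 75 of the 92 members, 80 windows in all. The NRF1 letters GCGCANGC, searched on both strands, were in 27 of these 80 windows (33.8%) against 9.95% of all 32851 windows. The GABPA letters CCGGAAG were in 18 windows (22.5%) against 8.86% of all, and the YY1 letters AAGATGGC in 11 windows (13.8%) against 2.75%. A match describes letters only and is not a measured site. The upstream stretches of 4 members that recur below are shown 5′ to 3′ with the NRF1 letters in capitals. Cox6a1 had the lowest p of all members at 5 weeks, Ndufa11 the lowest p of complex I at 1 week, Sdha is the catalytic subunit with nearly equal group means, and Cox8b differed most between the timepoints in sham. The first 3 hold the NRF1 letters and the stretch of Cox8b holds none of the motifs searched.
Cox6a1 chr5:115348982-115349128 (-): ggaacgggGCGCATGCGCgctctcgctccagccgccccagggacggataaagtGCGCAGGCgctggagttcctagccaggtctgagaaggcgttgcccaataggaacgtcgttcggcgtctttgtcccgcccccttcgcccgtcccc
Ndufa11 chr17:56717652-56717761 (+): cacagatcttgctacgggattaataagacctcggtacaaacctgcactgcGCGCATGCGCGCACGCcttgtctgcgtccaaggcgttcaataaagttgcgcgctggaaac
Sdha chr13:74350281-74350350 (-): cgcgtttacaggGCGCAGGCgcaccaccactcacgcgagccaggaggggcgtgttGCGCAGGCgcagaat
Cox8b chr7:140900447-140900556 (-): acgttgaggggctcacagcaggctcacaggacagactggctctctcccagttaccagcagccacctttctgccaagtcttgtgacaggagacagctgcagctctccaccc

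The first comparison asked whether the blast altered these genes by 1 week. No member passed the threshold: 0 of 92 had an adjusted p below 0.005 (limma on log2(CPM + 1), Benjamini-Hochberg over all genes), against 2.25% of all genes tested. At 0.05 the count was also 0, and 4 members had an unadjusted p below 0.05 (4.35%), against 17.3% of all genes. The median log2 fold change of bTBI vs. sham over the 92 members was -0.06, while that of all genes was -0.00024. Most members lay on the same side of 0: 81 of 92 (88.0%) had a value below 0, against 50.1% of all genes. By complex, values below 0 were found for 38 of 39 complex I genes, 5 of 8 assembly factors, 1 of 4 complex II genes, 8 of 8 complex III genes, 12 of 16 complex IV genes and 17 of 17 complex V genes. The members are measured in the same 12 retinas and are not independent of each other.

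Most intervals lay within a set limit, although the share over all genes given beside them includes genes of low level. For 69 of the 92 members (75%) the 95% confidence interval at 1 week, taken gene by gene, lay within 0.3 of 0 on the log2 scale, against 60.0% of all genes. Among those whose interval reached further were Cox8b, from -0.19 to 0.71 on the log2 scale, and Cox4i2, from -0.43 to -0.01. At 5 weeks the interval lay within that range for 88 of 91 members (96.7%), against 79.2% of all genes, and the exceptions were the low genes Ndufa4l2, Ndufaf6 and Cox6c2.

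**Figure D1:**
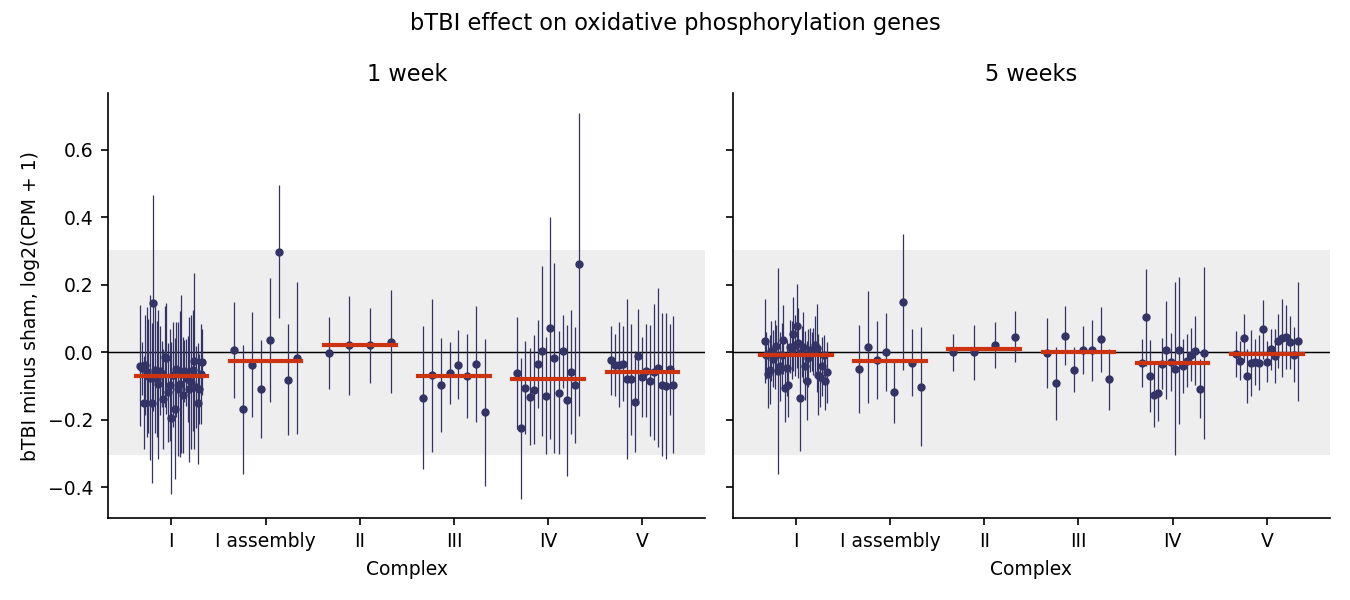
Difference between bTBI and sham on the log2(CPM + 1) scale (y axis) for each member, grouped by complex (x axis), at 1 week (left, 92 genes) and 5 weeks (right, 91 genes). Points are limma estimates with 95% confidence intervals from 6 bTBI and 6 sham retinas, red lines are medians of each complex, and the grey band marks 0.3 on either side of 0. Medians of complexes I, III, IV and V lay between -0.08 and -0.06 at 1 week and between -0.03 and 0.0022 at 5 weeks.

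Complex I oxidises NADH and is the largest of the complexes. Ndufa11 (chr17:56717767-56722141, GRCm38), a membrane-arm subunit, was measured in sham retinas at 1 week at 60.9 CPM at the lowest, 69.3 at the median and 74.6 at the highest. In bTBI retinas the values were 55.3, 60.4 and 70.8 CPM. The groups overlapped, although 4 of 6 bTBI retinas were below the lowest sham retina. The log2 fold change was -0.15 ± 0.06 (SE, n = 6 and 6), with an adjusted p of 0.241 by limma. Ndufv1, which holds the NADH-binding site, stood at 200.3 ± 10.2 CPM in sham and 185.8 ± 11.9 CPM in bTBI (SD, n = 6 each), and 5 of 6 bTBI retinas were below the lowest sham retina. Its log2 fold change of -0.11 ± 0.05 (SE) had an adjusted p of 0.266 by limma. The iron-sulphur subunits Ndufs1 and Ndufs7 had log2 fold changes of -0.05 and -0.10 with limma adjusted p of 0.606 and 0.404. In the other direction only Ndufa4l2 lay above 0 in complex I, at 0.15 ± 0.15 (SE), with a level of 2.47 ± 0.53 CPM in sham.

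Assembly factors help to build complex I and are not part of the finished enzyme. The member with the lowest p at 1 week was among them: Ndufaf6 (chr4:11051045-11076205) had 2.81, 3.81 and 3.96 CPM (lowest, median, highest) in sham and 4.18, 4.57 and 5.29 CPM in bTBI. Every bTBI retina was above every sham retina. Groups without overlap, in either direction, were found for 1 of 92 members against 3.85% of all genes. The log2 fold change was 0.30 ± 0.09 (SE), and the limma adjusted p of 0.0724 did not reach the threshold. Ndufaf6 was singled out after its values were seen.

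Complex II links the citric acid cycle to the respiratory chain. At 5 weeks its median log2 fold change of 0.01 was farther from 0 than that of complex III (0.0022). At 1 week complex II stood closest to 0, with a median of 0.02. Sdha, its catalytic flavoprotein, ranged from 455.2 to 532.0 CPM in sham (median 516.3) and from 475.8 to 535.1 CPM in bTBI (median 508.6), so that the groups covered the same range. The difference was -0.0018 on the log2 scale, with a 95% interval of -0.11 to 0.11. Sdhb, the iron-sulphur subunit, had a log2 fold change of 0.02 ± 0.07 (SE) and Sdhd, a membrane anchor, of 0.03 ± 0.07 (SE). All 4 intervals of complex II lay within 0.3 of 0 on the log2 scale at both timepoints.

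Complex III, which transfers electrons to cytochrome c, had its lowest p at 1 week in Uqcrq, a small subunit, at 86.2 ± 9.0 CPM in sham and 76.8 ± 14.4 CPM in bTBI (SD, n = 6 each). Its log2 fold change was -0.18 ± 0.10 (SE; limma adjusted p = 0.422). The Rieske protein gene Uqcrfs1 and the core protein gene Uqcrc1 had log2 fold changes of -0.07 and -0.06. In complex IV, Cox4i2 (chr2:152754173-152765037), an isoform of subunit 4 known for induction at low oxygen, ranged from 34.0 to 52.2 CPM in sham (median 41.9) and from 32.1 to 45.0 CPM in bTBI (median 34.3). The groups overlapped, with 2 bTBI retinas below the lowest sham retina. The log2 fold change was -0.22 ± 0.10 (SE; limma adjusted p = 0.245). The main isoform Cox4i1 and the subunit Cox5a had log2 fold changes of -0.06 and -0.10. In complex V the lowest p belonged to Atp5g1, 1 of 3 genes for the same c-ring subunit, with a log2 fold change of -0.15 ± 0.07 (SE; limma adjusted p = 0.313). The alpha subunit of the ATP synthase gave -0.02 ± 0.05 (Atp5a1) and the beta subunit, which bears the catalytic sites, -0.04 ± 0.04 (Atp5b), both SE on the log2 scale.

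The retinas at 1 week differed widely within each group. The mean log2(CPM + 1) over the 92 members was 6.27, 6.01, 6.04, 6.19, 6.12 and 5.94 in sham retinas 1 to 6 and 6.25, 6.12, 5.93, 5.96, 5.94 and 6.01 in bTBI retinas 1 to 6. The highest sham and the highest bTBI retina, both replicate 1, thus differed by less than the spread within either group. Of the 92 members, 50 had their highest value of the 12 retinas in sham replicate 1 and 20 in bTBI replicate 1, while 33 had their lowest in bTBI replicate 3 and 22 in bTBI replicate 5. The mean of 82 cytosolic ribosomal protein genes was also highest in these 2 retinas, at 7.55 in sham replicate 1 and 7.64 in bTBI replicate 1, against 7.16 to 7.46 in the other 10. The mean of 4 pigment epithelium genes was likewise highest in sham replicate 1 (10.35) and bTBI replicate 1 (10.09) and lowest in bTBI replicates 4 to 6 (9.29 to 9.42). Sham replicate 1 and bTBI replicate 1 also had the lowest recovered depths at 1 week, 14301989 and 15097829 reads. The other 10 retinas had 16722488 to 25158638 reads, with 17273169 in bTBI replicate 3, the retina lowest for the most members. The part of depth or of either list in the result was not tested. Within groups the median SD of a member on the log2 scale was 0.14 in sham and 0.15 in bTBI at 1 week, and 0.07 in both groups at 5 weeks. Over the 8797 genes with a mean log2(CPM + 1) above 4 it was 0.11 in both groups at 1 week, below that of the members. Over the 9381 such genes at 5 weeks it was 0.07 in sham and 0.08 in bTBI.

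**Figure D2:**
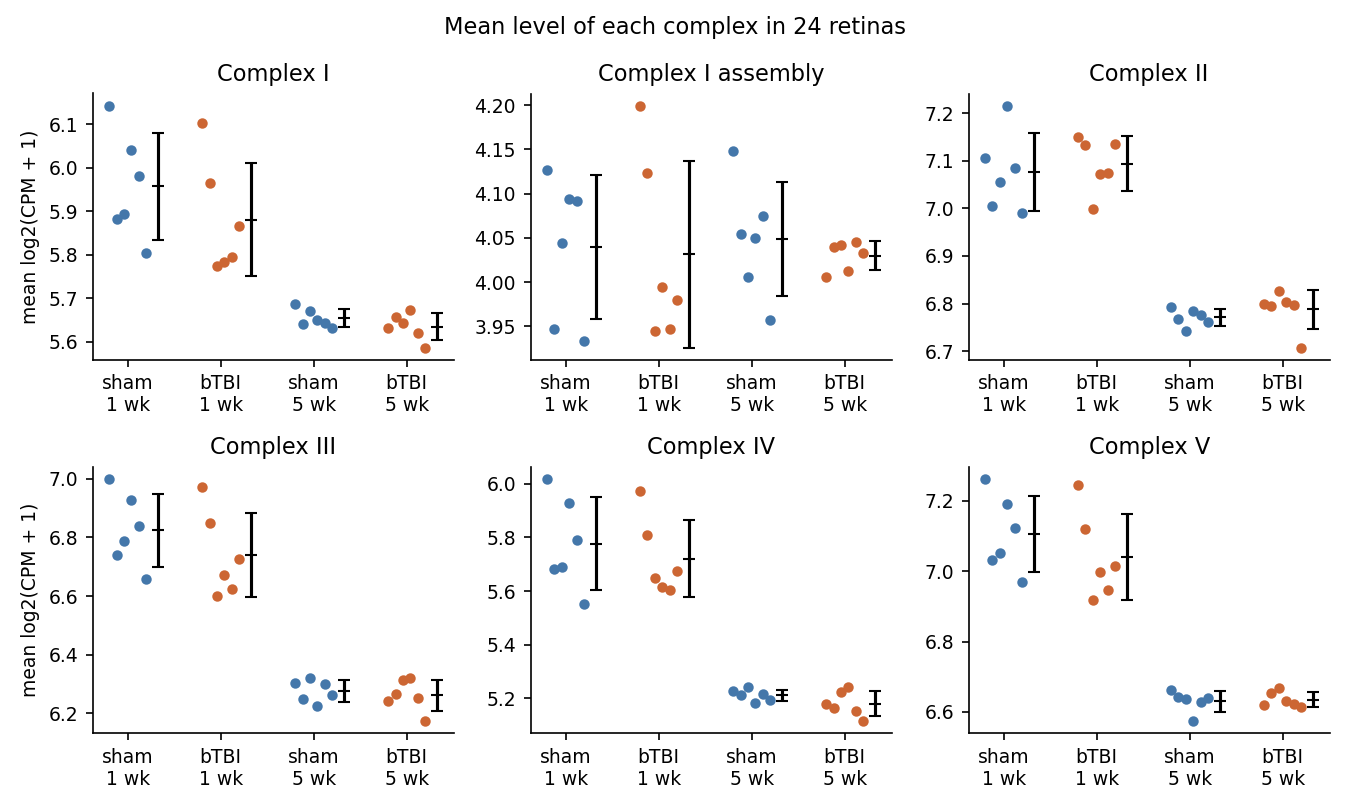
Mean log2(CPM + 1) of the genes of each complex (y axes, scales differ and do not start at 0) in each of the 24 retinas, by group and timepoint. Each point is a retina, and black bars are the mean ± SD of 6 retinas. Sham and bTBI retinas overlapped in every panel, and the SD was larger at 1 week than at 5 weeks in every panel for both groups, by the smallest ratio for the assembly factors in sham (0.08 and 0.06).

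The median over the members at 1 week depended on single retinas. It was -0.11 when bTBI replicate 1 was left out, -0.10 when sham replicate 6 was, and -0.03 when sham replicate 1 was. The number of members with an unadjusted p below 0.05 was 20 of 92 with bTBI replicate 1 omitted, against 19.0% of all genes in that fit, and 11 with sham replicate 6 omitted, against 17.3%. It was 1 with bTBI replicate 3, 4 or 5 omitted and 1 when values were scaled to library totals. The count past the threshold was 0 each time. In bTBI replicates 5 and 6 the mean of 10 lens genes was 7.32 and 7.63 on the log2(CPM + 1) scale, against 0.93 to 4.70 in the other 10 retinas. Without these 2 retinas the median over the members was -0.04, 69 of 92 were below 0 and 0 were called. The oligodendrocyte gene Mbp, a myelin protein gene, stood at 11.31 on the log2(CPM + 1) scale in bTBI replicate 3, the retina that was lowest for more members than any other, and at 7.13 in bTBI replicate 4, against 5.20 to 5.43 in the other 10 retinas. Without bTBI replicates 3 and 4 the median over the members was -0.02, 64 of 92 were below 0 and 0 were called. No fit left out both pairs. The remaining bTBI retinas, replicates 1 and 2, had mean log2(CPM + 1) values over the members of 6.25 and 6.12. In bTBI replicates 3 to 6 these means were 5.93 to 6.01, and the sham mean was 6.09 ± 0.12 (SD, n = 6). The median without all 4 retinas was not tested.

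The second comparison concerned 5 weeks. Again 0 of 91 members passed the threshold, against 0.835% of all genes tested, and 0 did at 0.05. An unadjusted p below 0.05 was found for 6 members (6.59%), against 10.9% of all genes. The median log2 fold change was -0.0066 over the members and 0.0012 over all genes, with 52 members below 0 and 39 above. With single retinas left out the median ran from -0.02 (without bTBI replicate 3 or 4) to -0.0049 (without bTBI replicate 5), and 50 to 63 members were below 0. All 6 members with an unadjusted p below 0.05 were lower in bTBI, and 3 of them belonged to complex IV.

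The members with the lowest p at 5 weeks were Cox6a1 and Cox5b of cytochrome c oxidase. Cox6a1 (chr5:115345642-115348981), the widely expressed isoform of subunit 6a, had 76.2, 79.5 and 83.3 CPM (lowest, median, highest) in sham and 68.9, 71.6 and 79.1 CPM in bTBI. Of the bTBI retinas, 4 of 6 were below the lowest sham retina. The log2 fold change was -0.12 ± 0.04 (SE), 92.0% of the sham mean, with a limma adjusted p of 0.18. Cox5b (chr1:36691449-36693681), a zinc-binding subunit, ranged from 75.3 to 81.3 CPM in sham (median 76.4) and from 64.5 to 81.2 CPM in bTBI (median 70.4), and 5 of 6 bTBI retinas were below the lowest sham retina. Its log2 fold change was -0.12 ± 0.05 (SE; limma adjusted p = 0.251), and without bTBI replicate 1 its adjusted p was 0.0372. Cox8a, the main isoform of subunit 8, had 129.9 ± 5.8 CPM in sham and 120.7 ± 8.0 CPM in bTBI (SD, n = 6 each), a log2 fold change of -0.11 ± 0.04 (SE; limma adjusted p = 0.307). At 1 week the log2 fold changes of Cox6a1, Cox5b and Cox8a had been -0.11, -0.13 and -0.10.

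The assembly factor Ndufaf5 was the single member of 91 whose groups did not overlap at 5 weeks, against 1.98% of all genes. It had 26.1 to 28.4 CPM in sham (median 26.7) and 24.3 to 26.0 CPM in bTBI (median 24.5), a log2 fold change of -0.12 ± 0.04 (SE; limma adjusted p = 0.289). Ndufa8 and Ndufab1, subunits of complex I of which the latter also serves as the mitochondrial acyl carrier protein, had log2 fold changes of -0.11 ± 0.05 and -0.10 ± 0.05 (SE), with limma adjusted p of 0.418 and 0.456. Ndufaf5, Cox5b, Cox8a and Ndufab1 were singled out for their unadjusted p. The highest values of each complex were small as well: Ndufb4 at 0.08, Sdhd at 0.05, Uqcrb at 0.05, Cox4i2 at 0.10 and Atp5g2 at 0.07 on the log2 scale, with limma adjusted p between 0.632 and 0.767. The assembly factor Ndufaf6, the member with the lowest p at 1 week, stood at 0.15 ± 0.10 (SE; limma adjusted p = 0.647). In the other direction Uqcrq stood at -0.08 and Atp5d at -0.07.

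Core subunits lay nearer to 0 at 5 weeks. Log2 fold changes were 0.01 for Ndufs1, -0.01 for Ndufv1, 0.00017 for Sdha, -2.4e-05 for Sdhb, 0.01 for Uqcrfs1, -0.01 for Atp5a1 and -0.02 for Atp5b. Those of Ndufs7, Uqcrc1, Cox4i1 and Cox5a were -0.07, -0.05, -0.03 and -0.07. Atp5b, the member with the highest level, ranged from 1131 to 1160 CPM in sham and from 1090 to 1188 CPM in bTBI, the bTBI retinas lying on both sides of the sham retinas.

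The test of the difference between the bTBI effects at 5 weeks and at 1 week called 0 of 91 members, against 0.104% of all 14455 shared genes. The median difference was 0.05 over the members and 0.005 over all genes, with 71 members above 0. With single retinas left out the median ran from 0.02 (without sham replicate 1 at 1 week) to 0.09 (without bTBI replicate 1 at 1 week), and 58 to 79 members were above 0. An unadjusted p below 0.05 was found for 2 members (8.5% of all genes): Cox4i2, with a difference of 0.33 ± 0.12 (SE; limma adjusted p = 0.359), and Ndufb4, with 0.27 ± 0.13 (SE; limma adjusted p = 0.552). For 63 of 91 members (69.2%) the 95% interval of the difference lay within 0.3 of 0, against 51.9% of all genes. Without both lens-rich retinas the median difference was 0.02 with 62 members above 0, and without both oligodendrocyte-rich retinas it was 0.01 with 51 above 0.

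Markers of other processes moved in these same retinas. The marker list of retinal ganglion cells, the neurons whose axons form the optic nerve, had 9 of 10 genes called lower at 1 week and 10 of 10 at 5 weeks, with medians of -0.51 and -0.69 on the log2 scale. Among 8 microglial genes 6 were called higher at 1 week, with a median of 1.13, and 0 of 7 at 5 weeks. At 5 weeks the microglial median was 0.17, with 6 of 7 above 0 and 1 with a limma adjusted p below 0.05. The rod list had 0 of 8 genes called at either timepoint, with medians of 0.04 and 0.05. At 5 weeks all 8 rod genes were above 0. The mean of the rod list was then 11.99 to 12.09 in sham and 12.10 to 12.13 in bTBI on the log2(CPM + 1) scale, without overlap. Among 7 genes of Muller glia 1 was called higher at 1 week (median 0.20) and 0 at 5 weeks (0.05). Among 5 genes of astrocytes and reactive macroglia 4 (Gfap, Nes, Edn2 and Stat3) were called higher at 1 week (median 1.06) and 0 at 5 weeks (0.19). At 5 weeks all 5 were still above 0, and 2 had a limma adjusted p below 0.05. No gene was called at either timepoint among 8 cone genes, with medians of -0.14 and -0.01, or 4 pigment epithelium genes, with medians of -0.22 and 0.04, all 4 below 0 at 1 week. Mbp, with log2 fold changes of 1.22 and -0.0057, was called at neither timepoint. What share of the members' RNA came from each of these cell types was not measured.

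Other genes of mitochondrial and energy metabolism gave few calls at the threshold, although glycolysis held many low p. Of 77 mitochondrial ribosomal protein genes 0 were called at either timepoint, and 65 of 77 were below 0 at 1 week with a median of -0.05. No gene was called among 35 assembly factors outside the rule at 1 week, 36 at 5 weeks, 17 genes of pyruvate dehydrogenase and the citric acid cycle, 13 mitochondrial import genes, 13 regulators of mitochondrial biogenesis, or the genes of cytochrome c and cytochrome c1. Of 18 rows of glycolysis 1 was called at each timepoint: Eno2, the neuronal enolase, with log2 fold changes of -0.25 ± 0.04 (SE; limma adjusted p = 0.0026) at 1 week and -0.14 ± 0.03 (SE; limma adjusted p = 0.0038) at 5 weeks. An unadjusted p below 0.05 was found for 7 of the 18 rows at 1 week (38.9%, against 17.3% of all genes) and 10 at 5 weeks (55.6%, against 10.9%), and an adjusted p below 0.05 for 3 and 5. At 5 weeks 17 of 18 were below 0 with a median of -0.08, and the mean of the list was 9.26 to 9.34 in sham and 9.17 to 9.24 in bTBI on the log2(CPM + 1) scale, without overlap. Of 82 cytosolic ribosomal protein genes 0 were called at 1 week, with a median of 0.01.

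Levels between genes were compared per kilobase of exon (CPM divided by the union of exons in GENCODE M21). The union spans all annotated transcripts of a gene and can be longer than the transcript expressed, so that orders between genes are uncertain. In sham retinas at 1 week Atp5b stood highest, at 406.3 ± 7.3 CPM per kilobase, followed by Cox8a at 373.6 ± 39.7 and Atp5a1 at 334.9 ± 16.4 (SD, n = 6 each). Atp5b and Cox8a did not differ beyond their spread. Cox6a1 (209.7), Ndufa4 (194.7), Cox6b1 (191.3) and Cox4i1 (188.0 CPM per kilobase) came next, and their SDs of 15.8 to 25.8 exceeded the gaps between them. At 5 weeks Atp5b stood at 271.2, Atp5a1 at 210.7 and Cox8a at 209.8 CPM per kilobase, the last 2 within their SDs of 4.6 and 9.4. The lowest members were Ndufa4l2, Ndufaf6 and Ndufs6b, at 2.25, 2.90 and 3.02 CPM per kilobase in sham at 1 week.

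Tissue isoforms of cytochrome c oxidase were far apart in level. Cox8a is the general isoform of subunit 8 and Cox8b the heart and muscle isoform: in sham at 1 week they stood at 373.6 and 38.9 CPM per kilobase, and at 5 weeks at 209.8 and 14.1. The corresponding values were 188.0 and 54.5 at 1 week and 122.5 and 23.2 at 5 weeks for Cox4i1 and Cox4i2. Cox7a1, another muscle isoform, had 4.32 CPM per kilobase at 1 week and 4.03 at 5 weeks, while Cox7a2 had 127.8 and 82.2 and the related Cox7a2l 123.3 and 81.8. Cox6b2, known from testis, stood at 8.26 and 7.90 against 191.3 and 115.2 for Cox6b1. Ndufa4l2 had 2.25 and 1.10 CPM per kilobase against 194.7 and 127.9 for Ndufa4. The c-ring genes Atp5g1, Atp5g2 and Atp5g3, which encode the same mature protein, had 25.9, 49.9 and 114.9 at 1 week and 16.8, 33.6 and 81.0 at 5 weeks. Atp5g2 shares 35.8% of its 75-base stretches with transcripts of other genes, and its level is therefore uncertain.

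**Figure D3:**
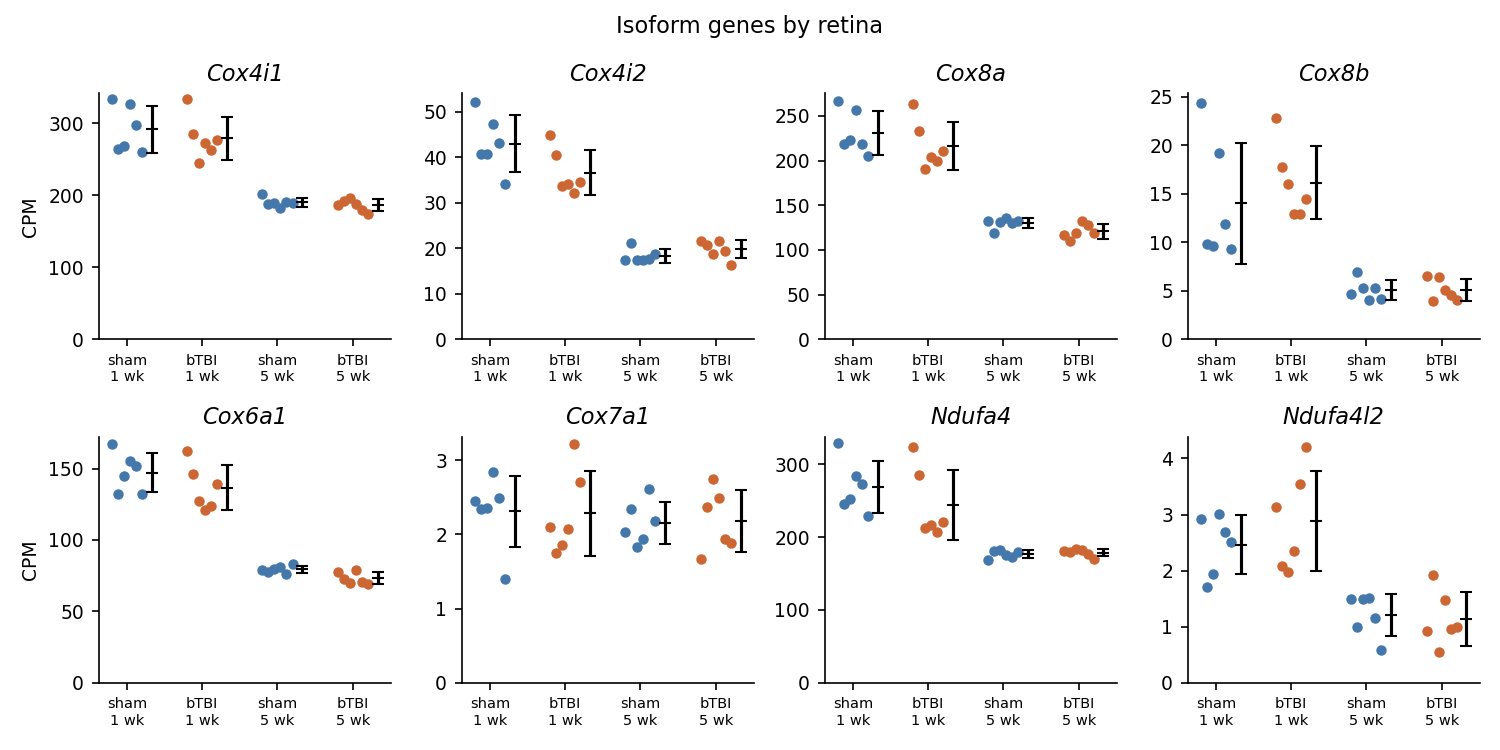
CPM (y axes from 0, scales differ) of 8 isoform genes in each of 6 retinas per group, with the mean ± SD in black. Sham and bTBI overlapped for every gene at both timepoints, and except for Cox7a1 and Ndufa4l2 all 12 retinas at 1 week were above all 12 at 5 weeks.

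Sham retinas of the 2 timepoints were set side by side without a test, because the tables were normalised separately and the RNA kit changed with the timepoint. The members stood higher at 1 week: the median difference of mean log2(CPM + 1) was 0.50 (1.42-fold) over the 91 shared members and -0.05 over all 14455 shared genes. For 72 of 91 members (79.1%) every sham retina at 1 week was above every sham retina at 5 weeks, against 24% of all genes. The reverse held for 3 members (3.30%), against 34.3% of all genes. By complex the retinas did not overlap, with the higher values at 1 week, for 33 of 38 genes of complex I, 2 of 8 assembly factors, 3 of 4 of complex II, 8 of 8 of complex III, 11 of 16 of complex IV and 15 of 17 of complex V. The assembly factors thus departed from the subunits, with 4 above and 4 below 0.

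**Figure D4:**
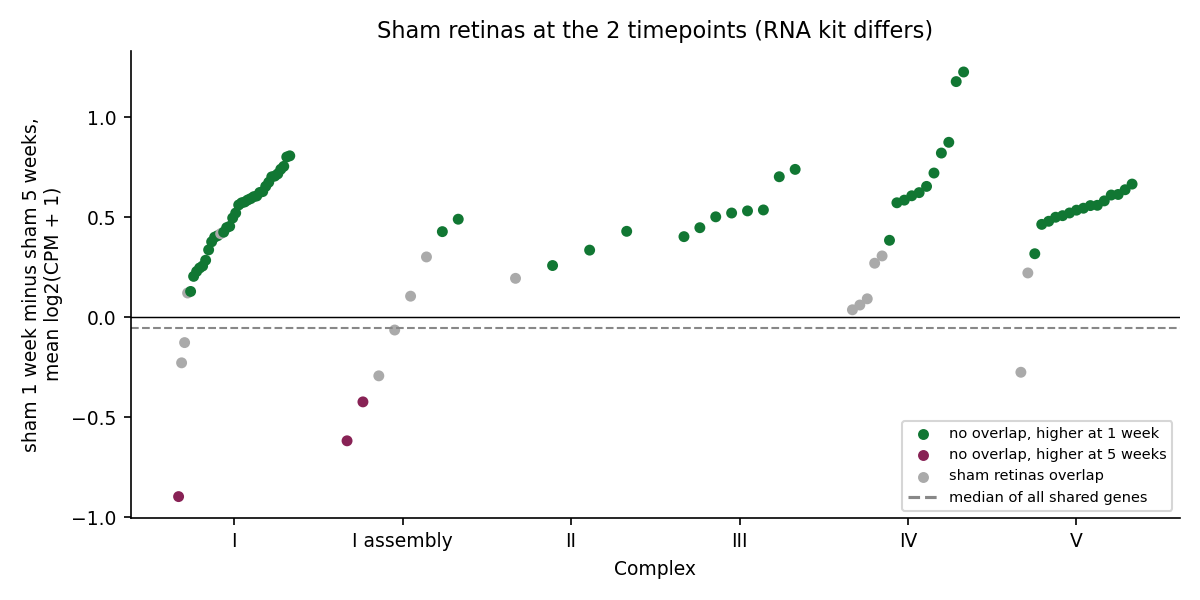
Sham at 1 week minus sham at 5 weeks, difference of mean log2(CPM + 1) over 6 retinas each (y axis), for the 91 shared members by complex (x axis). Colours show whether the 6 and 6 retinas overlapped, and the dashed line is the median of all shared genes at -0.05. All genes of complexes II, III and IV and all but 1 of complex V lay above 0.

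Cox8b differed most, with a lowest, median and highest value of 9.30, 10.8 and 24.3 CPM in sham at 1 week and 4.02, 4.99 and 6.91 CPM at 5 weeks, a difference of 1.23 on the log2 scale. Cox4i2 followed at 1.18, with 34.0 to 52.2 CPM at 1 week and 17.3 to 21.1 CPM at 5 weeks. The general isoforms Cox6a1 and Cox8a were at 0.88 and 0.82. Among core subunits the differences were 0.67 for Atp5a1, 0.61 for Cox4i1, 0.58 for Atp5b, 0.45 for Uqcrc1, 0.26 for Sdha and 0.13 for Ndufv1. Ndufab1 went the other way, with 20.7 to 23.9 CPM at 1 week and 39.3 to 45.6 CPM at 5 weeks, a difference of -0.90. Ndufaf7, an arginine methyltransferase of complex I assembly, and Ndufaf4 were also higher at 5 weeks without overlap, at -0.62 and -0.42. Cox7a1 and Cox6b2 had differences of 0.06 and 0.04 and overlapped.

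Other gene groups also differed between the timepoints, in both directions. Cytosolic ribosomal protein genes had a median of 0.73, with 79 of 82 not overlapping and higher at 1 week, while mitochondrial ribosomal protein genes had a median of 0.15, with 19 of 77 (24.7%) higher at 1 week without overlap, near the 24% of all genes, and 12 higher at 5 weeks. Glycolysis had a median of 0.51 over 18 rows, retinal ganglion cell markers 0.76 over 10 genes, microglial markers 0.97 over 7 and the rod list 0.13 over 8. Red cell genes had a median of 1.87 with 3 of 3 not overlapping, Muller glia 0.73 with 7 of 7 and pigment epithelium 0.71 with 3 of 4, all higher at 1 week. Regulators of mitochondrial biogenesis, which include Ppargc1a and Nrf1, went the other way in median, at -0.29 against -0.05 over all genes. Without overlap 0 of 13 were higher at 1 week, against 24% of all genes. The reverse held for 6 of 13 (46.2%), against 34.3% of all genes. Their part in the result was not tested.

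The difference also ran with the length of the union of exons. This union spans all annotated transcripts of a gene and can be longer than the transcript expressed. The classes of length below therefore need not hold transcripts of like length. Over all shared genes the median was 0.55 for a union of exons of up to 500 bases, 0.18 for over 1000 to 2000 bases and -0.17 for over 5000 to 8000 bases. The unions of the members are short: the median was 1587 bases against 4380 over all genes, and 58 of 91 were at or under 2000 bases. Within classes of length the median of the members was above that of the other genes in each of the 4 classes with 12 or more members. It was 0.62 against 0.33 at over 500 to 1000 bases (19 members) and 0.54 against 0.17 at over 1000 to 2000 bases (36 members). In the longer classes it was 0.36 against 0.01 at up to 3000 bases (12 members) and 0.43 against -0.09 at up to 5000 bases (17 members). Cytosolic ribosomal protein genes stood above the members in each of these 4 classes, with medians of 0.90, 0.74, 0.63 and 0.62. The 3 members of over 5000 to 8000 bases, among them Ndufab1, had a median of -0.23 against -0.17. Length, kit and time cannot be told apart as sources of this difference. Members with the NRF1 letters in a promoter window had a median of 0.46 and those with a window but without these letters 0.52.

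**Figure D5:**
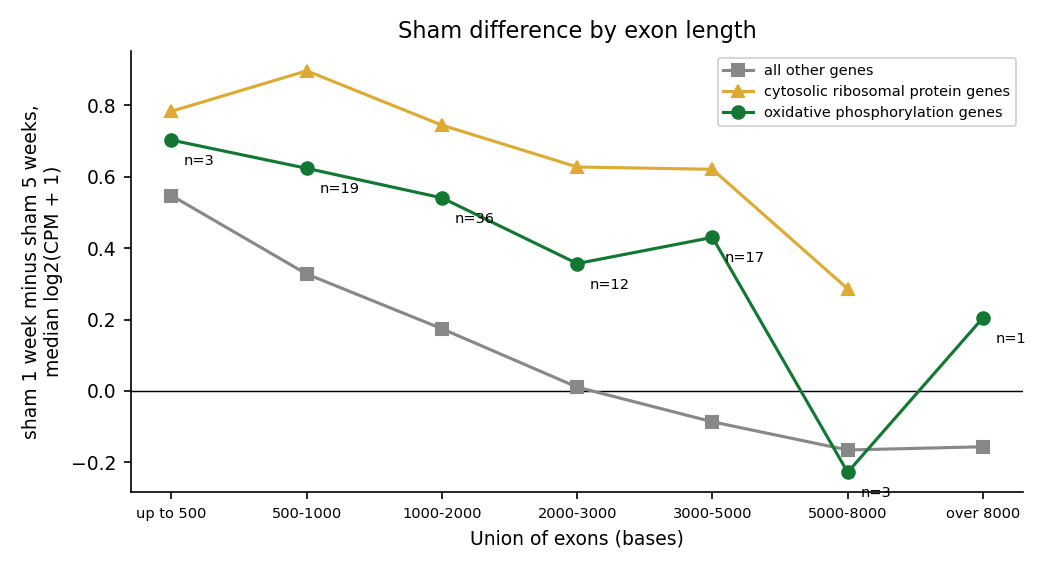
Median of sham at 1 week minus sham at 5 weeks on the log2(CPM + 1) scale (y axis) by class of exon length in bases (x axis), for the members (green, number of genes beside each point), cytosolic ribosomal protein genes (yellow) and all genes that are no member (grey). The classes at the right hold 3 and 1 members.

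Some members share sequence with other genes. In 18 of 92 more than 10% of the 75-base stretches of their transcripts also occur in transcripts of other genes, up to 63.2% in Ndufaf2 and 45.2% in Cox6c2, and counts of these 18 are uncertain. The strand setting of the counting is not given in the sources used here, so reads of overlapping genes may not be told apart. Without these 18 members the median log2 fold changes were -0.06 at 1 week and -0.0088 at 5 weeks, and 57 of 73 shared members were higher at 1 week in sham without overlap.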

How the data were processed

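The authors aligned 75-base paired reads of polyadenylated RNA with STAR to the mouse genome (GRCm38), counted genes with featureCounts and normalised with edgeR. The deposited values are a signal, counts scaled to an effective library of 1000000 (CPM), in a separate table per timepoint. All values lay within 0.01 of a whole multiple of a step per retina. The depth that this gives could not be checked against a stated total, and counts were not tested. No retinas held identical values.

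Values were tested as log2(CPM + 1) with limma (version 3.58.1; trended prior, R 4.3.3), bTBI against sham within each table of 12 retinas, with Benjamini-Hochberg adjustment over all genes and a threshold of 0.005. The difference between timepoints was fitted over 24 retinas and 14455 shared genes. Replicates are separate retinas. The fit was tested on simulated data. Symbols came from GENCODE M21 (14907 of 14922 and 15902 of 15920 identifiers matched), as did coordinates and exon lengths. The members and lists were chosen with earlier results of these data known. Genes named with values were those with the lowest p per complex and direction, core subunits (1 is not reported here), tissue isoforms, the extremes of level and of the sham difference, and any with an unadjusted p below 0.05, the last set added after values were seen.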

Additional observations from a re-analysis of the deposited data

Results flagged for a closer look

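Across 174 sets of 6 retinas, 6 held a retina that stood apart by Dixon's test, and chance alone gives about 1 in 20 sets, or 8.7. In sham at 1 week, Cox7a1 in replicate 6 was 1.40 CPM, against 2.34 to 2.84 in the other retinas. In bTBI at 1 week, Cox6b1 in replicate 1 was 153.0 CPM, against 125.3 to 133.0. In sham at 5 weeks, replicate 2 stood apart for Cox4i2, at 21.1 CPM against 17.3 to 18.7, and for Cox8a, at 118.7 CPM against 129.6 to 135.6. In bTBI at 5 weeks, Ndufs1 in replicate 4 was 116.6 CPM, against 108.4 to 110.4, and the mean of complex II in replicate 6 was 6.71 on the log2(CPM + 1) scale, against 6.80 to 6.83.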

How the results depend on the processing

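The count of members past the threshold was 0 in each comparison under each alternative run. The count over all genes moved more. At 1 week it was 336, and 112 without both lens-rich and 128 without both oligodendrocyte-rich bTBI retinas (each chosen after seeing the data), 685 in a single fit of 24 retinas, 907 at 0.05, and 189 to 486 when each retina was left out. At 5 weeks it was 133, and 56 with a prior without trend, 75 in the single fit, 326 at 0.05 and 88 to 163 with each retina left out. For the difference between timepoints it was 15, and 111 at 0.05 and 9 to 111 with each retina left out. At 0.05, Ndufaf6 passed at 1 week in the single fit (adjusted p = 0.037) and with a prior without trend (0.0388), Cox5b passed at 5 weeks without bTBI replicate 1 (0.0372), and the limma adjusted p of Ndufaf6 was 0.201 without the lens-rich retinas. The single fit uses the same residual variance of a gene for both timepoints. The median SD of a member within groups was 0.14 to 0.15 on the log2 scale at 1 week and 0.07 at 5 weeks. Why the counts and adjusted p moved between settings was not tested.

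Signs near 0 turned. At 1 week Sdha was 0.00098 on the log2 scale with the median of ratios, and Ndufa4l2 was -0.031 without the lens-rich retinas. At 5 weeks Sdhb was 0.0035 with the median of ratios, and with library totals Sdha was -0.0022. With each retina left out, values at 1 week ran from -0.0048 to 0.078 for Sdhd, -0.033 to 0.016 for Sdha and -0.017 to 0.066 for Sdhb. At 5 weeks they ran from -0.016 to 0.027 for Sdhb, -0.0083 to 0.016 for Ndufs1, -0.021 to 0.0041 for Ndufv1, -0.0056 to 0.013 for Sdha, -0.020 to 0.032 for Uqcrfs1 and -0.020 to 0.022 for Atp5a1.

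The median sham difference was 0.47 to 0.53 with each sham retina left out, and 0.58 with the median of ratios, which put the median of all genes at 0.02. Replicate numbers were not taken as pairs in the main fit, and whether same-numbered retinas shared a batch is not known. Deviations of same-numbered retinas correlated between -0.25 and 0.54 at 1 week and between -0.11 and 0.15 at 5 weeks. At these timepoints 1 and 0 of 6 sham retinas correlated best with their own number. With the replicate block 293 genes were called at 1 week, 134 at 5 weeks and 14 for the difference, with 0 members called. In that fit 9 of 92 members had an unadjusted limma p below 0.05 at 1 week, against 17.5% of all genes. The main fit had 4. Count tests with edgeR and DESeq2 were planned and not run: the values are whole multiples of a step per retina, but reads recovered from them were not accepted as counts. A fit without a filter on low values was not possible, since the tables hold genes already filtered.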
